A study of Homo sapiens with 6 samples.

Results

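The genes described here are 9 that encode proteins of the basement membrane. They are the laminin chain genes LAMA3, LAMA5, LAMB1, LAMB3 and LAMC1, the nidogen genes NID1 and NID2, and the proteoglycan genes HSPG2 (perlecan) and AGRN (agrin). They were taken by gene symbol from a table of 16250 genes, and the rule that selected them used no measured value, although results of these data were known when the set was chosen. RNA was sequenced from HK-2 cells, an immortalized line of human renal proximal tubule cells, that had been infected with a pCDH lentivirus carrying NK-1R (the gene TACR1, the receptor of substance P) and selected with puromycin. The 3 SP libraries came from such cells after 48 h with 20 µM substance P (SP), and the 3 control libraries from such cells after 48 h with PBS. Both groups therefore carry the receptor transgene, and the viral CMV promoter drives it. Nothing in the sources used here says whether the 3 libraries of a group came from separate cultures, so the p-values measure the spread between libraries, which may be technical.

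A basement membrane is a thin sheet of matrix beneath epithelia and around capillaries. Laminins, each an assembly of an α, a β and a γ chain, form a network on the cell surface through integrins and dystroglycan, and collagen IV forms another. Nidogens and the heparan sulfate proteoglycans perlecan and agrin bridge these networks. In the kidney, tubule cells rest on such a membrane, and it thickens and changes in composition during fibrosis. The comparison asks how SP, acting on cells that overexpress its receptor, alters the transcripts of these proteins.

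Of the 9 genes, NID2 was the one that changed most, and it rose 6.86-fold in SP-treated cells, while the closely related NID1 did not pass the test. AGRN and LAMA5 fell to 0.738 and 0.770 of the control level, and LAMA3 was higher in every SP library but narrowly missed the threshold. The values are FPKM (fragment counts scaled to transcript length and to the library's total), which allow levels of different genes to be compared per length. Differences were tested with limma across 12127 genes on log2(FPKM + 1), with Benjamini-Hochberg adjustment over all of them, and fold changes are on that scale. At an adjusted p under 0.05, 1 of the 9 genes was higher, 2 were lower and 6 did not pass, where 8.57% of all genes tested were higher and 12.0% were lower. So 3 of 9 passed in either direction against 20.6% of all genes tested. With the replicate number as a block, a fit described with the processing, 3 were higher (against 9.76% of genes tested) and 2 lower (against 13.1%). With a log2 fold change of at least 1 required as well, 1 of the 9 remained, against 1.29% of tested genes higher and 0.305% lower. The median log2 fold change of the 9 genes was 0.07, and that of all genes tested was -0.05. All 9 passed the filter on low values, and their lowest FPKM in any library was 7.40. In bulk RNA, fewer cells that express a gene and less of its RNA per cell cannot be told apart.

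TACR1 itself was present in every library, with FPKM of 15.74, 25.82 and 32.98 in control and 78.47, 123.25 and 140.69 in SP. Its log2 difference was 2.17 ± 0.28 (SE, limma adjusted p = 0.00207), so SP exposure and the amount of receptor transcript differ together and cannot be told apart in the results below. On the first principal component, which held 64.8% of the variance and separated the groups, the first SP library (12.7) lay nearer the controls than the other SP libraries (20.7 and 21.3). Total FPKM was 672807 to 760889 in control and 681075 to 688406 in SP, and libraries of a group correlated at 0.99 to 0.996 across genes. Of 18 markers of proximal tubule and renal epithelium analysed here, KRT8, KRT18, KRT19 and PAX8 were expressed, and 9 were under 1 FPKM in every library. These included CUBN, AQP1, SLC34A1 and SLC5A2, the defining transporters, channel and uptake receptor of the proximal tubule, and ANPEP, ALPL, HNF4A and CDH1. All 18 markers summed to an FPKM of 1343 to 1403 in control and 1342 to 1349 in SP. Of the 10 tested, 2 were higher and 2 lower, against 8.57% and 12.0% of all genes tested. Fibroblast markers, of which 7 of 9 were under 1 FPKM in every library, summed to 24.2 to 30.5 in control and 16.2 to 18.7 in SP, with COL1A1 and LUM, both of which fell, making up nearly all of it. Endothelial markers stayed under 1 in sum (0.05 to 0.14 and 0.37 to 0.72), leukocyte markers summed to 114 to 119 and 110 to 116 with PTPRC at or under 0.01, and podocyte markers to 13.6 to 20.2 and 16.6 to 17.6 with NPHS1 under 1. Most of the leukocyte sum was CD68, with a mean FPKM of 112 in control and 109 in SP. Most of the podocyte sum was SYNPO, while PODXL rose from 1.38 to 1.69 FPKM in control to 3.01 to 4.38 in SP (log2 difference 0.84, limma adjusted p = 0.00359). The part of these shifts in the results below was not tested.

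NID2 and NID1 encode the nidogens (entactins), glycoproteins that bind both the laminin γ chain encoded by LAMC1 and collagen IV. NID2 (gene ID 22795) lies on chromosome 14 at 52004803 to 52069228 of GRCh38, minus strand, and its principal transcript has 22 exons over 4811 bases. Its FPKM was 11.34, 13.75 and 19.74 in control and 104.01, 101.1 and 112.44 in SP. The lowest SP library thus stood well above the highest control library, and the first SP library, which lay nearer the controls across all genes, was as high as the others. The log2 difference was 2.78 ± 0.16 (SE, 95% interval 2.40 to 3.15, limma adjusted p = 0.000107), a 6.86-fold rise. Over the 12127 genes tested, NID2 ranked 9 by p, and 9 by log2 fold change counted from the strongest rise, so falls such as that of MMP7 are not in that order. NID1 (gene ID 4811, chromosome 1 at 235975830 to 236065162, minus strand, 20 exons over 5864 bases) had FPKM of 50.63, 59.69 and 73.78 in control and 56.30, 56.61 and 51.61 in SP. The 3 SP libraries all fell within the control range. The log2 difference was -0.14 (95% interval -0.42 to 0.14, limma adjusted p = 0.429).

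NID2 was the lesser nidogen transcript in control and the greater in SP. Its share of the summed nidogen FPKM was 18.3%, 18.7% and 21.1% in control and 64.9%, 64.1% and 68.5% in SP. The summed level of both nidogens was 76.3 ± 16.0 (SD, n = 3) in control and 161 ± 3.19 in SP. Within each library, the log2 ratio of NID2 to NID1 was -2.06, -2.04 and -1.85 in control and 0.87, 0.83 and 1.11 in SP. The difference of 2.92 had an exact two-sided permutation p of 0.1, the smallest that 3 against 3 libraries allow, and 0.133 adjusted over the 4 ratios compared. The NID2 locus shares 5889 bases with RTRAF on the other strand, including exon bases of NID2, and no source used here states how strand was handled in quantification. RTRAF itself was 17.52 to 18.66 in control and 16.74 to 16.95 in SP (log2 difference -0.08, limma adjusted p = 0.367), and so did not rise with NID2.

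The promoters of this pair are shown because the 2 genes, alike in product, differed in response. For 8 of the 9 genes RefSeq gives the 250 bases before the start site (GRCh38.p14), in 10 entries, and those below are the stretch of each window that lies outside annotated exons, 5′ to 3′ on the gene's strand. Capitals mark the letters GGGCGG (GC box) as read on the gene's strand. The NID2 stretch is chr14:52069229-52069309 (minus) and the NID1 stretch is chr1:236065163-236065340 (minus).
NID2: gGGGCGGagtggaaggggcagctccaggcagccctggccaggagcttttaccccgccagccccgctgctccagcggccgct
NID1: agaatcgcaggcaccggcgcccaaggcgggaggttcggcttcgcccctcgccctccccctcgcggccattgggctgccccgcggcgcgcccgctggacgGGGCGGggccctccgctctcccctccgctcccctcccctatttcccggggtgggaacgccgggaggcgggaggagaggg
In the whole window, both strands read, NID2 held 3 GC boxes and NID1 held 1, and 42.6% of all 35116 RefSeq promoters hold at least 1. Also searched were the AP-1 site with the letters TGANTCA, the cyclic AMP response element with TGACGTCA, the NF-kB site, the E-box bound by TFAP4 with CAGCTG, the TEAD site with GGAATG, the ETS site with CCGGAAG and the TATA box with TATAAA. Neither window held any of these 7 motifs. A GC content of 76.4% for NID1 and 68.0% for NID2 compares with a median of 58.0% over all promoters.

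The laminin α chains carry the domains that integrins and dystroglycan bind. LAMA3 encodes the α chain of the laminin at hemidesmosomes, and LAMA5 that of the mature epithelial and glomerular basement membrane. LAMA3 (gene ID 3909, chromosome 18 at 23689443 to 23956222, plus strand, 75 exons over 10661 bases) had FPKM of 9.46, 7.40 and 8.44 in control and 10.47, 10.20 and 12.16 in SP. The groups did not overlap, with SP higher. On the log2 scale it was higher by 0.34 ± 0.10 (SE, 95% interval 0.10 to 0.58), and the limma adjusted p was 0.0504. With the replicate number as a block it was 0.0409, and without the first control library it was 0.0318. Leaving out any other library kept it above 0.05, and it reached 0.163 without the second control library. It was under 0.05 in 6 of the 14 alternative settings described with the processing.

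LAMA5 (gene ID 3911, chromosome 20 at 62307955 to 62367312, minus strand, 80 exons over 11426 bases) moved the other way. Its FPKM was 13.26, 15.16 and 16.31 in control and 11.23, 12.16 and 10.33 in SP. Again the groups did not overlap, with SP lower. On the log2 scale it differed by -0.38 ± 0.10 (SE, 95% interval -0.59 to -0.16, limma adjusted p = 0.0278). This call was lost when any library but the first control was left out (limma adjusted p = 0.0550 to 0.0917), and when libraries were scaled to equal total FPKM (0.121). LAMA5 shares 908 bases with ADRM1 on the other strand, including exon bases of LAMA5. ADRM1, far above LAMA5 in level, was 213 ± 24.0 FPKM (SD, n = 3) in control and 210 ± 5.50 in SP. LAMA5-AS1, also on the other strand, shares 3486 bases with LAMA5, exon bases among them, and has no values here. As for NID2, no source used here states how strand was handled.

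The log2 ratio of LAMA3 to LAMA5 was -0.45, -0.94 and -0.87 in control and -0.09, -0.23 and 0.22 in SP, so that LAMA3 moved from well below LAMA5 to about its level. The difference was 0.72 (exact two-sided permutation p = 0.1, the smallest possible, and 0.133 adjusted over the 4 ratios). Summed over the 5 laminin α chain genes, the level was 24.1 ± 1.26 (SD, n = 3) in control and 23.6 ± 0.633 in SP, and in 2 of 3 SP libraries the sum lay within the control range of 23.3 to 25.5.

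LAMB1 and LAMB3 encode β chains, LAMB1 of the laminins found in most basement membranes and LAMB3 of the hemidesmosome laminin, in which it pairs with the LAMA3 chain. LAMB1 (gene ID 3912, chromosome 7 at 107923799 to 108003255, minus strand) was at 76.41, 83.01 and 100.92 FPKM in control and 91.71, 98.94 and 101.66 in SP. The groups overlapped through the third control library. Its log2 difference of 0.17 (95% interval -0.06 to 0.41) had a limma adjusted p of 0.248, and without that library it was 0.29 with 0.0345. Dropping the library that makes the groups overlap favours a smaller p, so this fit is no separate evidence. On leaving out any other library the limma adjusted p was 0.233 to 0.54. LAMB1 shares 7932 bases with DLD on the other strand, including exon bases of LAMB1. DLD fell (log2 difference -0.29, limma adjusted p = 0.0246, and 0.0536 to 0.112 on leaving out control 2, control 3, SP 2 or SP 3).

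LAMB3 (gene ID 3914, chromosome 1 at 209614870 to 209652466, minus strand) was at 18.24, 18.54 and 22.70 FPKM in control and 20.56, 23.15 and 27.76 in SP. In 2 of 3 SP libraries it exceeded every control library. Its log2 difference of 0.25 ± 0.12 (SE, 95% interval -0.03 to 0.53) had a limma adjusted p of 0.174, and of 0.0426 with the replicate number as a block. The log2 ratio of LAMB3 to LAMB1 was -2.01, -2.10 and -2.10 in control and -2.10, -2.05 and -1.84 in SP, a difference of 0.08 (exact two-sided permutation p = 0.6). The 4 β chain genes summed to 131 ± 14.8 FPKM (SD, n = 3) in control and 148 ± 7.31 in SP.

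Of the windows before the start sites, those of LAMA3 and LAMB3 were the 2 among 8 genes that held the AP-1 letters TGANTCA, which 6.57% of all promoters hold. They are shown with 10 bases on each side, in capitals where the letters match, 5′ to 3′ on the gene's strand. The RefSeq start of LAMA3 lies within the gene, where its short transcript begins, and the single FPKM per gene does not separate the short from the long transcript. The sites of LAMA3 begin 125 and 69 bases before its start (chr18:23872885-23872911 and chr18:23872941-23872967, plus, both within an exon annotated by GENCODE), and that of LAMB3 begins 67 bases before the last of its 3 listed starts (chr1:209651425-209651451, minus).
LAMA3, 125 before: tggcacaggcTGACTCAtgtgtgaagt
LAMA3, 69 before: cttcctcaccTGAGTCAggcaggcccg
LAMB3, 67 before: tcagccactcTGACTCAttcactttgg
A match of letters is a description of the sequence and was not tested for binding.

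LAMC1 encodes the γ chain of most laminins and carries a site that nidogens bind. Located on chromosome 1 at 183023460 to 183145592 (gene ID 3915, plus strand, 28 exons over 7889 bases), it had FPKM of 73.14, 90.30 and 107.65 in control and 69.43, 76.86 and 75.71 in SP. Controls spread widely and the groups overlapped through the first control library. The log2 difference was -0.27 (95% interval -0.56 to 0.02, limma adjusted p = 0.159), and without that library it was -0.41 with 0.0232. As for LAMB1, dropping the library that makes the groups overlap favours a smaller p, so this fit is no separate evidence. On leaving out any other library the limma adjusted p was 0.233 or higher. In 6 of 6 libraries the summed α chains lay below the summed β chains.

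Perlecan and agrin are large proteoglycans that carry heparan sulfate and bind dystroglycan and laminin. AGRN (gene ID 375790, chromosome 1 at 1020123 to 1056118, plus strand, 36 exons over 7323 bases) was among the more abundant transcripts, above 92.3% of the genes tested. Its FPKM was 104.87, 125.16 and 120.01 in control and 87.26, 94.12 and 76.27 in SP. Every SP library lay below every control library. The log2 difference was -0.44 ± 0.10 (SE, 95% interval -0.66 to -0.22, limma adjusted p = 0.0165), or 0.738 of the control level. The adjusted p was 0.0656 without the second control library and 0.0563 with libraries scaled to equal total FPKM. HSPG2 (gene ID 3339, chromosome 1 at 21822245 to 21937297, minus strand, 97 exons over 14327 bases) had FPKM of 10.05, 12.06 and 12.19 in control and 12.28, 13.16 and 10.81 in SP. The groups overlapped, and the log2 difference of 0.07 (95% interval -0.16 to 0.31, limma adjusted p = 0.628) was -0.01 without the first control library.

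The ratio of perlecan to agrin transcript spread little within groups. In log2 it was -3.26, -3.27 and -3.20 in control and -2.73, -2.75 and -2.71 in SP, a difference of 0.51 (exact two-sided permutation p = 0.1, the smallest possible, and 0.133 adjusted over the 4 ratios). The 2 groups of ratios were several times farther apart than the libraries within either. It stayed between 0.50 and 0.54 when any library was left out.

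**Figure D1:**
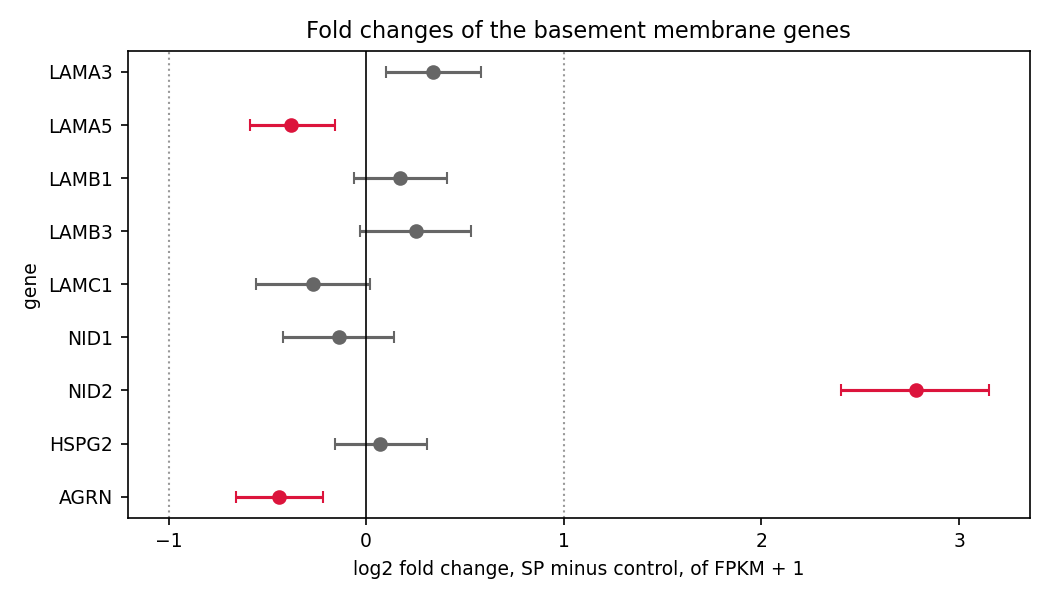
Log2 fold change (SP minus control, of FPKM + 1) of each gene with its 95% interval from limma, in red where the adjusted p was under 0.05 and with dotted lines at -1 and 1. NID2 stands apart at 2.78, the intervals of AGRN and LAMA5 lie below 0, and that of LAMA3 lies above 0 although its adjusted p was 0.0504.

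The order of levels changed through NID2. In control the order by mean FPKM was AGRN (117), LAMC1 (90.4), LAMB1 (86.8), NID1 (61.4), LAMB3 (19.8), NID2 (14.9), LAMA5 (14.9), HSPG2 (11.4) and LAMA3 (8.43). The ranges of neighbours did not overlap between LAMB1 and NID1, NID1 and LAMB3, LAMA5 and HSPG2, and HSPG2 and LAMA3, and overlapped elsewhere. In SP the order was NID2 (106), LAMB1 (97.4), AGRN (85.9), LAMC1 (74.0), NID1 (54.8), LAMB3 (23.8), HSPG2 (12.1), LAMA5 (11.2) and LAMA3 (10.9). Here the ranges of neighbours were separate between LAMC1 and NID1, NID1 and LAMB3, and LAMB3 and HSPG2. Across the groups, 2 genes had every SP library higher (NID2 and LAMA3) and 2 had every SP library lower (LAMA5 and AGRN), where 15.9% and 26.1% of all genes tested were separated in these directions. The 9 genes summed to 425 ± 57.2 FPKM (SD, n = 3) in control and 476 ± 11.8 in SP.

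The genes whose values over the 6 libraries lay closest to NID2, by the root mean square difference of log2(FPKM + 1) centred on each gene's mean, were NR4A1 (0.289), TMEM158 (0.312) and RASD1 (0.331). For LAMA5 they were SAMD9L (0.0371), LAMC3 (0.0442) and LIG1 (0.0475), and for AGRN CDCA8 (0.0473), EML1 (0.0566) and DPYD (0.0576). The measure grows with the size of a gene's change, so it orders genes around 1 gene and is not compared between NID2, LAMA5 and AGRN. It also depends on the pseudocount of 1, which shrinks differences at low levels. RASD1 was at 0.16 to 0.37 FPKM in control and 5.45 to 10.51 in SP. Over the alternative settings its log2 difference was 2.67 to 4.42, against 2.61 to 2.98 for NID2. SAMD9L was also low, at 1.15 to 1.52 FPKM in control and 0.68 to 0.90 in SP. Its log2 difference was -0.63 to -0.29 over these settings, against -0.45 to -0.31 for LAMA5. LAMC3, itself a laminin γ chain gene, was at 23.20, 26.08 and 26.89 FPKM in control and 20.63, 20.89 and 17.40 in SP.

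The other genes around these proteins were described in 7 lists. Their counts are to be read beside the 8.57% of all genes tested that were higher and the 12.0% that were lower. Of the laminin chains outside the 9, LAMA2, LAMA4 and LAMB4 were below the filter, and of the 4 tested 1 was higher and 1 lower. LAMA1, which encodes another α chain, rose from 0.503 ± 0.161 to 1.19 ± 0.231 FPKM (SD, n = 3, log2 difference 0.55, limma adjusted p = 0.0172, and 0.0529 without the third SP library), a low level throughout. With a pseudocount of 0.1 in place of 1 its log2 difference was 1.12. LAMC3 fell by 0.36 on the log2 scale (limma adjusted p = 0.0295), a call that was lost on leaving out control 2, control 3, SP 2 or SP 3 (0.0623 to 0.0994). Among 18 other basement membrane proteins tested of 30, 4 were higher, 6 lower and 8 did not pass (median log2 difference -0.17, against -0.05 for all genes tested). TINAGL1 (0.76), FBLN1 (0.57), a fibulin, and PXDN (0.51), the peroxidase that cross-links collagen IV, rose, and PAPLN (-0.84), MATN2 (-0.75) and FBLN2 (-0.66) fell. Of the main collagen IV chains, COL4A2 was at 118 ± 3.49 and 139 ± 6.30 FPKM (log2 difference 0.23, limma adjusted p = 0.0323), and COL4A1 at 62.7 ± 5.20 and 71.9 ± 2.62 (0.20, 0.0947). The limma adjusted p of COL4A2 was 0.0605 to 0.141 on leaving out control 2, control 3, SP 1 or SP 2, and that of MATN2 was 0.0513 to 0.0888 on leaving out control 1, control 2, SP 2 or SP 3.

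Of the receptors, 6 of 19 tested were higher, 2 were lower and 11 did not pass (median log2 difference 0.10). Of all genes tested, 8.57% were higher and 12.0% lower. ITGA2, the α subunit of a collagen and laminin receptor, rose from 1.69 ± 0.565 to 5.14 ± 0.354 FPKM (SD, n = 3, log2 difference 1.21, limma adjusted p = 0.00184). ITGB3 (0.68) and the syndecan SDC2 (0.67) also passed, though ITGB3 was lost on leaving out any library but control 3 (limma adjusted p = 0.0869 to 0.132) and SDC2 on leaving out control 2, SP 1 or SP 2 (0.0700 to 0.0856). RPSA (-0.35), a ribosomal protein also known as a laminin receptor, and UTRN (-0.24) were lower. RPSA was lost on leaving out control 2, SP 2 or SP 3 (limma adjusted p = 0.0540 to 0.0583), and UTRN on leaving out any library and with the replicate number as a block (0.0636). DAG1, singled out after its values were seen because dystroglycan binds laminin, perlecan and agrin, was at 11.64, 10.92 and 10.59 FPKM in control and 18.83, 17.92 and 17.38 in SP (log2 difference 0.66, limma adjusted p = 0.00112). Dystroglycan binds these only once glycosylated. Of 10 tested genes for that glycosylation limma called 0, with 2 at an unadjusted p under 0.05. The share of all genes tested at that unadjusted limit was not computed, and is at least the 20.6% called after adjustment. With the block 1 was higher and 1 lower. POMGNT1 had a log2 difference of 0.24 (limma adjusted p = 0.0874, 0.0499 with the block) and POMT1 one of -0.17 (0.263).

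The heparan sulfate chains of perlecan and agrin are built and sulfated by another set of enzymes. Of 17 tested, 4 were higher, 1 was lower and 12 did not pass (median log2 difference 0.10), against 8.57% of all genes tested higher and 12.0% lower. HS6ST1 (0.55), HS3ST3B1 (0.35), both sulfotransferases, and B3GAT3 (0.35), which completes the linker to the core protein, were higher, and EXT1 (-0.34), which polymerizes the chain, was lower. The 4 higher calls fell to 0 without the second control library, which also ended that of EXT1 (limma adjusted p = 0.0564), and also without the second SP library. HS3ST3B1 was lost on leaving out any library (0.0630 to 0.101), its log2 difference being 0.56 with a pseudocount of 0.1, and B3GAT3 on leaving out any but control 1 (0.0582 to 0.144). At an unadjusted p under 0.05, 5 of the 17 were higher as reported. The share of all genes tested at that limit was not computed, and is at least the 8.57% called higher after adjustment. Among 8 other heparan sulfate proteoglycans tested, SDC2 was higher and SDC3 lower (-0.62, limma adjusted p = 0.0198), and with the block 2 were higher. SDC3 had an adjusted p of 0.0617 without the second control library and of 0.0698 without the second SP library.

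Proteases that cut these proteins, and their inhibitors, included the largest differences in the lists. Of 17 tested, 7 were higher, 3 were lower and 7 did not pass (median log2 difference 0.17), against 8.57% of all genes tested higher and 12.0% lower. PLAT, tissue plasminogen activator, rose from 9.06 ± 4.09 to 51.8 ± 11.0 FPKM (SD, n = 3, log2 difference 2.47, limma adjusted p = 0.00186), and MMP14, a membrane-bound metalloproteinase, from 79.5 ± 8.55 to 194 ± 44.4 (1.25, 0.00216). PLAU, urokinase, rose by 0.98 in log2 (limma adjusted p = 0.0140, and 0.0545 without the second SP library). MMP7, matrilysin, fell from 157 ± 27.4 to 13.6 ± 3.66 (-3.45, limma adjusted p = 9.35e-05). BMP1, which trims laminin chains, fell by 0.42 on the log2 scale, and PRSS12, neurotrypsin, which cleaves agrin, by 0.55, though PRSS12 was lost on leaving out control 1, control 2, SP 2 or SP 3 (limma adjusted p = 0.0583 to 0.0967).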

How the data were processed

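The authors deposited FPKM, given to 2 decimals, for 16250 genes in each of 6 libraries. The sample titles do not say whether any library was pooled. They sequenced paired-end reads on DNBSEQ, mapped them to GRCh38.p13 with HISAT and used RSEM for quantification, and the submitters' processing notes name HISAT2 and Bowtie2. FPKM is scaled to each library's total, so abundant genes that change shift all others. No counts were used, so depth is unknown and no count test was run. The 12127 genes that reached an FPKM of 0.5 in 3 or more libraries entered a limma fit (version 3.58.1, R 4.3.3) of log2(FPKM + 1) with a variance trend and Benjamini-Hochberg adjustment, after the script was tested on simulated data. Ratios were tested by exact permutation in SciPy 1.17.1. The 9 genes and the lists were chosen with earlier results of these data known. Named beyond the 9 were TACR1, COL4A1, COL4A2, up to 3 called genes per direction with the largest fold change in each list (with none called, the 2 of highest FPKM), and the 3 genes nearest the member with the smallest p among laminins, nidogens and proteoglycans. DAG1, DLD, RTRAF, ADRM1 and the markers were named outside this rule. Some genes of the rule and lists are not reported here.

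Groups share replicate numbers. Deviations from group means correlated at 0.165, 0.223 and 0.17 between same-numbered libraries and negatively between all others, so a fit with the number as a block was run. These correlations are the basis for the pairing, as no source used here says what a number stands for. Centring each group on its mean pushes the other correlations negative on average where same-numbered ones are positive. The negative signs are therefore no separate evidence. The pairing was also read from the same data to which the block was then fitted. Other alternatives were scaling, pseudocount, filter, variance trend and leaving out each library. Positions and overlaps come from GENCODE 29 on GRCh38, promoters from RefSeq on GRCh38.p14.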

Additional observations from a re-analysis of the deposited data

How the results depend on the processing

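NID2 was called under all 14 alternatives (log2 difference 2.61 to 2.98) and was the 1 gene of the 9 past 2-fold in each. The count of the 9 genes higher went from 1 to 2 with equal FPKM totals, median-ratio scaling, a pseudocount of 0.1 or an FPKM filter of 1, to 3 with the replicate block, and was 1 to 2 with a library left out (2 without the first control library and 2 without the third). The count lower went from 2 to 0 with equal totals and to 1 with no filter, and was 0 to 3 with a library left out (0 without the second control, 3 without the first control, 1 without the third control library and 1 when any SP library was left out). With a library left out, the log2 difference of HSPG2 was -0.01 to 0.15, turning negative without the first control library, and that of the LAMB3 to LAMB1 ratio was -0.0 to 0.13, turning without the third SP library. The cause was not tested. Over all genes, 1039 were higher and 1457 lower, against 1044 and 750 with equal totals, 1281 and 912 with median-ratio scaling, 582 and 603 without the second control library, 506 and 432 without the second SP library and 690 and 822 without the third. The median of all genes moved from -0.05 to 0.00386 with equal totals. The replicate block changed the calls of LAMA3, LAMB3, UTRN, POMGNT1 and SAMD9L (limma adjusted p from 0.0432 to 0.0585) and of no other gene among the 9, TACR1, those named by rule, DAG1, DLD, COL1A1, LUM and PODXL. Other genes, given by their values alone, were not compared in this way.

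In the lists, whose counts under other settings were added after the data were seen, laminin chains ranged from 0 to 1 higher and 0 to 1 lower, other basement membrane proteins from 3 to 5 and 4 to 7, receptors from 3 to 7 and 0 to 2, dystroglycan glycosylation from 0 to 1 and 0 to 1, heparan sulfate enzymes from 0 to 5 and 0 to 1, other heparan sulfate proteoglycans from 0 to 2 and 0 to 2, and proteases from 4 to 8 and 2 to 4. Because only FPKM was used, the precision of low levels such as those of LAMA1 cannot be derived from depth.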
